A study of Rattus norvegicus with 6 samples.

Results

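The PDGF ligands and receptors are represented here by 6 genes: the ligands Pdgfa, Pdgfb, Pdgfc and Pdgfd and the receptors Pdgfra and Pdgfrb. All 6 were found by symbol among the 16383 genes of the deposited UMI count table, and they were followed through all 25547 cells. The lungs came from young adult Sprague Dawley rats killed 28 days after 1 intratracheal instillation. Of these, 3 rats received bleomycin (BLM, 5 mg/kg), a drug that damages lung epithelium and leads to fibrosis, and 3 control rats received saline. Dissociated lung cells were captured with the BD Rhapsody microwell system, in which each captured RNA molecule carries a unique molecular identifier (UMI). The BLM rats gave 3657, 7481 and 3871 cells with 8082376, 16598959 and 8763046 UMIs, and the control rats gave 3372, 2568 and 4598 cells with 7577199, 3860028 and 12171722 UMIs.

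PDGF ligands are secreted dimers that bind a pair of related receptor tyrosine kinases on mesenchymal cells. PDGF-A and PDGF-C act mainly through PDGFRα, PDGF-B acts through both receptors, and PDGF-D acts mainly through PDGFRβ. PDGF-C and PDGF-D are secreted in a latent form that proteases activate. In the developing lung, PDGF-A from epithelium acts on PDGFRα-bearing mesenchyme that gives rise to alveolar myofibroblasts, and PDGF-B from endothelium recruits PDGFRβ-bearing pericytes.

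Levels are given as UMIs of a gene per 1000000 UMIs (CPM), summed over the cells of a rat, or over the cells of 1 class in a rat. The rat was the replicate, with 3 rats in each group, and BLM was compared with control by edgeR's quasi-likelihood test across all genes with Benjamini-Hochberg adjustment and a threshold of 0.05. Classes were named from marker genes after clustering without the 6 PDGF genes, and levels in different classes are compared without a test. The genes were not scaled by length, so levels are set side by side only within a gene.

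Background from free RNA was low in B cells. In B cells, taken as a class that should lack these genes, 2583 cells held 3 UMIs of Pdgfa, 1 of Pdgfb, 0 of Pdgfc, 1 of Pdgfd, 2 of Pdgfra and 0 of Pdgfrb. The share of B cells with a Pdgfb UMI was 0.0609% in BLM lungs and 0% in control lungs, at median depths of 598 and 574 UMIs per cell. Among classes with a level in 6 rats, B cells had the lowest mean Pdgfb, at 0.283 CPM. It averaged 3.08 CPM in T cells, 3.66 CPM in neutrophils and 4.96 CPM in monocytes, and whether these are background was not tested. A count of 314 cell labels was used in more than 1 rat, in 629 cells.

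Endothelial cells made up 11.8 ± 3.63% of cells in BLM lungs and 1.89 ± 1.26% in control lungs (SD, n = 3 each), and fibroblasts made up 6.30 ± 2.79% and 0.435 ± 0.30%. Alveolar type 2 (AT2) cells made up 0.757 ± 0.563% in BLM lungs and 7.14 ± 1.12% in control lungs, and alveolar macrophages made up 15.5 ± 0.83% and 35.2 ± 4.11%. In whole-lung sums, more cells of a type and more RNA per cell cannot be told apart.

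All 6 genes were higher in whole BLM lungs than in whole control lungs. Across all 13346 genes tested, 11.1% were higher and 6.33% were lower in BLM lungs by the same test. How many of all genes had groups without overlap was not counted, so overlap of rats is given as a description only.

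Pdgfa, the ligand of PDGFRα, had 47.1, 39.6 and 54.8 CPM in the 3 BLM lungs, against 18.7, 33.7 and 17.1 CPM in the 3 control lungs. The groups did not overlap, although control rat 2 lay near BLM rat 2. The log2 fold change was 1.02 (SE 0.23, edgeR adjusted p = 0.022). This call was lost without BLM rat 1, without control rat 1 and without control rat 3, where the log2 fold change was 1.01, 0.90 and 0.87.

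Pdgfb, the ligand of both receptors, had 85.0, 48.7 and 116.4 CPM in BLM lungs, against 15.6, 21.5 and 20.7 CPM in control lungs. Every BLM lung was above every control lung, and the BLM lungs were spread more widely than the controls, with a log2 fold change of 2.05 (SE 0.30, edgeR adjusted p = 0.00425).

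Pdgfc, a latent ligand, was the least counted member, with 184 UMIs in all cells. It had 3.59, 3.68 and 8.10 CPM in BLM lungs, against 0.79, 0.78 and 1.15 CPM in control lungs, and only BLM rat 3 stood well above the other BLM rats. Its log2 fold change was 2.33 (SE 0.45, edgeR adjusted p = 0.0122).

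Pdgfd, the other latent ligand, had 16.3, 12.7 and 19.7 CPM in BLM lungs, against 0.40, 1.81 and 0.90 CPM in control lungs. The groups were far apart, and the log2 fold change of 4.06 (SE 0.40, edgeR adjusted p = 0.00156) was the highest of the 6 genes. The control lungs held 21 Pdgfd UMIs together and the BLM lungs 516.

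Pdgfra had 48.8, 93.1 and 38.6 CPM in BLM lungs, against 2.38, 8.81 and 4.68 CPM in control lungs. The BLM rat with the most fibroblasts, rat 2, was also the highest for this receptor, and the groups did not overlap. Its log2 fold change was 3.59 (SE 0.49, edgeR adjusted p = 0.00344).

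Pdgfrb had 9.77, 13.2 and 13.4 CPM in BLM lungs, against 2.51, 7.51 and 4.19 CPM in control lungs. The groups did not overlap, and control rat 2 was the highest control. The log2 fold change was 1.38 (SE 0.35, edgeR adjusted p = 0.0326), and the call was lost when any rat other than control rat 2 was left out, with log2 fold changes of 1.07 (without control rat 1) to 1.502 (without BLM rat 1).

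**Figure D1:**
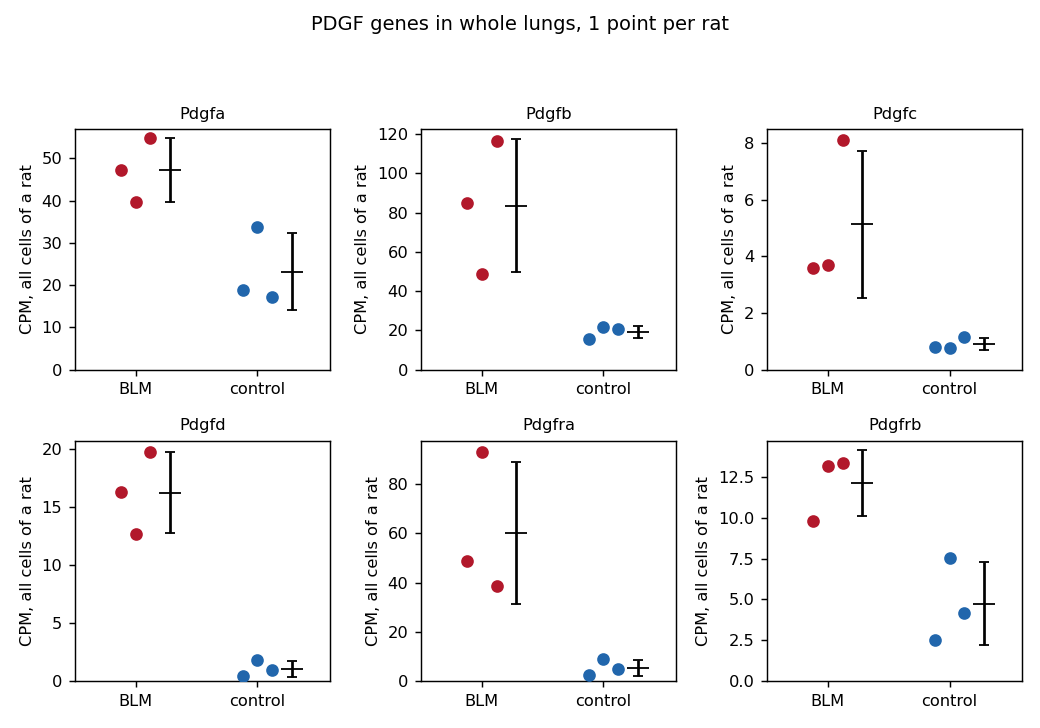
Whole-lung levels of the 6 PDGF genes, in CPM, with 1 point per rat, BLM left of control in each panel, and the mean and SD of 3 rats. Pdgfd shows 12.7 to 19.7 CPM in BLM lungs against 0.40 to 1.81 CPM in control lungs.

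The classes that held the UMIs differed between genes. Endothelial cells held 76.2% of the Pdgfb UMIs of BLM lungs and 29.4% of those of control lungs, and 84.7% and 33.3% of the Pdgfd UMIs. Fibroblasts held 95.9% of the Pdgfra UMIs of BLM lungs and 67.0% of those of control lungs. Of all Pdgfa UMIs, the smooth muscle or pericyte class held 19.4%, mesothelial cells 16.0%, endothelial cells 15.8%, interstitial macrophages 12.1%, AT2 cells 9.35% and fibroblasts 8.20%.

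Ranked by the mean over the rats of a group, Pdgfa in BLM lungs was highest in the smooth muscle or pericyte class at 241 ± 43.7 CPM, followed by mesothelial cells at 133 ± 9.58 CPM and endothelial cells at 111 ± 27.4 CPM (SD, n = 3 each). In control lungs it was highest in alveolar type 1 (AT1) cells at 537 ± 377 CPM (n = 2) and tuft cells at 210 ± 89.4 CPM (n = 3), with too few of either in BLM rats for a level, and the smooth muscle or pericyte class followed at 154 ± 56.8 CPM (n = 3). Mesothelial and endothelial cells overlapped in BLM lungs, and all neighbours named overlapped in control lungs.

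Pdgfb was highest in endothelial cells in both groups, at 687 ± 127 CPM in BLM lungs and 399 ± 109 CPM in control lungs (n = 3 each). Natural killer (NK) cells followed at 229 ± 102 CPM in BLM lungs and 199 ± 30.8 CPM in control lungs, and did not overlap with endothelial cells in either group.

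Pdgfd could be ordered over classes in BLM lungs only. In BLM lungs it was 158 ± 21.8 CPM in endothelial cells and 12.99 ± 3.29 CPM in fibroblasts (n = 3 each), which did not overlap. In control lungs it was 16.8 ± 15.1 CPM in endothelial cells (n = 3), from 7 UMIs, and 0 and 100.5 CPM in fibroblasts of rats 3 and 2, from 4 UMIs, so no order can be read there. Pdgfc was low in every class, with 14.97 ± 9.94 CPM in interstitial macrophages of BLM lungs and 16.8 ± 10.6 CPM in those of control lungs (n = 3 each).

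Pdgfra was highest in fibroblasts, at 545 ± 113 CPM in BLM lungs (n = 3) and 629 ± 215 CPM in control lungs (n = 2), and the smooth muscle or pericyte class followed at 19.1 ± 3.93 CPM and 41.6 ± 27.7 CPM (n = 3 each). Pdgfrb was highest in the smooth muscle or pericyte class, at 126 ± 4.89 CPM in BLM lungs and 160 ± 32.2 CPM in control lungs (n = 3 each). Fibroblasts followed at 56.9 ± 17.3 CPM in BLM lungs (n = 3) and 62.4 ± 52.7 CPM in control lungs (n = 2). None of these neighbours overlapped within a group.

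**Figure D2:**
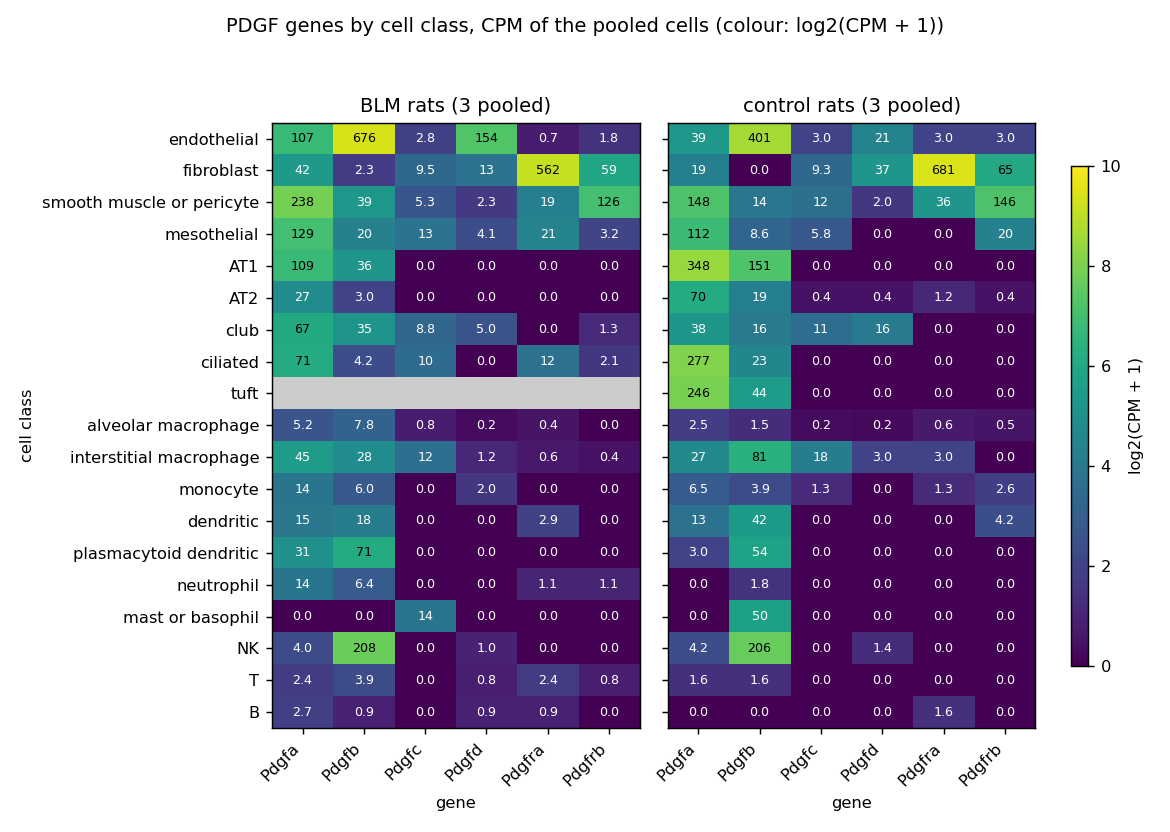
Levels of the 6 PDGF genes by cell class, as CPM of the pooled cells of 3 rats, with BLM in the left panel and control in the right. The colour is log2(CPM + 1) and grey marks fewer than 10 cells. In the BLM panel Pdgfb and Pdgfd are highest in the endothelial class, Pdgfra in fibroblasts and Pdgfrb in the smooth muscle or pericyte class, while Pdgfd in the control panel rests on 7 UMIs in endothelial cells and 4 in fibroblasts.

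Within classes, 17 tests of a member in a class could be made and 4 passed the threshold. Pdgfb and Pdgfd in endothelial cells and Pdgfb in alveolar macrophages were higher in BLM lungs, and Pdgfb in interstitial macrophages was lower. Of all genes tested, 6.73% were called in either direction in endothelial cells, 11.3% in alveolar macrophages and 17.7% in interstitial macrophages. In the other classes with a tested member, this share was 0.028% (club cells) to 11.2% (smooth muscle or pericyte class).

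The promoters of a pair of ligands are shown because Pdgfb and Pdgfd carry the endothelial results. They are the bases ahead of the first annotated base of each gene in RefSeq, build GRCr8, read on the gene's strand, and capitals mark the letters CCGCCC, the reverse complement of the GC box GGGCGG. The Pdgfb window is chr7:113438344-113438593 on the minus strand and the Pdgfd window is chr8:11773258-11773334 on the plus strand.
Pdgfb promoter: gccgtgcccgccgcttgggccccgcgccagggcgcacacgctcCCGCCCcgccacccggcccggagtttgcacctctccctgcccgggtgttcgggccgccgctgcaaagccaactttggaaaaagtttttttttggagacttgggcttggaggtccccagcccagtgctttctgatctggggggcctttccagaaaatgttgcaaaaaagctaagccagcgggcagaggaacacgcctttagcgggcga
Pdgfd promoter: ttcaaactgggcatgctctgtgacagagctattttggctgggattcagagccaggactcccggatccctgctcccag
The GC box was searched on both strands and occurs in 32.39% of 27457 RefSeq promoters of 250 bases, so a match is a description of the letters and not a site. The ETS core GGAAGT (19.5% of these promoters), the TATA box TATAAA (13.09%), the SOX core ACAAT (29.6%) and the AP-1 motif TGANTCA (6.363%) were also searched on both strands, and neither printed window held one. The printed Pdgfd window has only 77 bases, and the full 250-base promoter of Pdgfd held 1 ETS core and 1 GC box.

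In endothelial cells, 4.01% of 6185 genes tested were higher in BLM lungs and 2.72% were lower. Pdgfb had 756.8, 540.5 and 764.1 CPM in BLM endothelium, against 492.9, 278.9 and 425.5 CPM in control endothelium. The groups did not overlap, and BLM rat 2 lay closest to control rat 1. The log2 fold change was 0.92 (SE 0.24, edgeR adjusted p = 0.0296).

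This call rested on few control UMIs (13, 19 and 101) and was lost without BLM rat 1, BLM rat 3, control rat 1 or control rat 2, with log2 fold changes of 0.77 to 0.98. Without predicted doublets the log2 fold change was 0.81 (edgeR adjusted p = 0.0569).

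Pdgfd had 182.1, 151.2 and 140.0 CPM in BLM endothelium, against 0, 29.4 and 21.1 CPM in control endothelium. These controls rested on 0, 2 and 5 UMIs, against 121, 165 and 151 UMIs in BLM rats, and a count of 0 in control rat 1 allowed up to 114 CPM. The BLM rats were all above the controls, and the log2 fold change was 2.96 (SE 0.42, edgeR adjusted p = 0.000349).

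Pdgfa had 139.9, 108.1 and 85.3 CPM in BLM endothelium, against 113.8, 58.7 and 25.3 CPM in control endothelium. The groups overlapped at control rat 1, whose value came from 3 UMIs. The log2 fold change was 1.49 (95% interval 0.55 to 2.44, edgeR adjusted p = 0.0546), which missed the threshold. It passed without BLM rat 3, at a log2 fold change of 1.66.

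In the endothelial cluster that held most of the class, taken alone, all 3 ligands were higher in BLM lungs, with log2 fold changes of 2.19 for Pdgfa, 0.88 for Pdgfb and 3.08 for Pdgfd (edgeR adjusted p = 0.0129, 0.0412 and 0.000387), where 4.29% of 5806 genes tested were higher. The cluster was chosen after the data were seen.

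**Figure D3:**
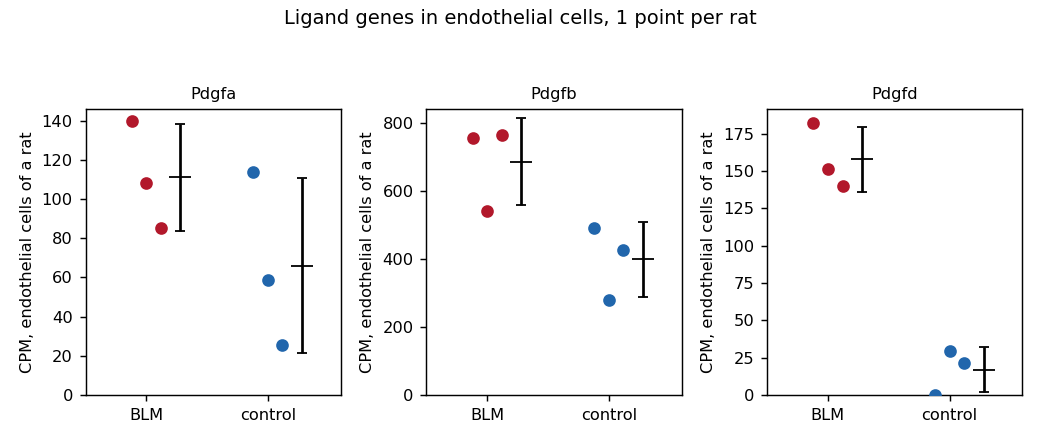
Pdgfa, Pdgfb and Pdgfd in endothelial cells, in CPM, with 1 point per rat, BLM left of control, and the mean and SD of 3 rats. Pdgfd shows 140.0 to 182.1 CPM in BLM endothelium against 0 to 29.4 CPM in control endothelium.

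The make-up of the class differed. Aerocyte-like cells, named after the capillary cells that line gas-exchange surfaces, were 5 of 1675 endothelial cells in BLM lungs and 129 of 218 in control lungs. In this subcluster 5 of 8 aerocyte markers were raised, with a mean log2 fold of 1.24, and general capillary markers came next at 0.95. No subcluster was named general capillary, so aerocytes and general capillary cells were not separated here. Summed markers of lymphatic endothelium reached 164 to 203 CPM in the BLM class and 960 to 2011 CPM in the control class, but 5 of the 7 markers (Ccl21, Mmrn1, Prox1, Reln and Pdpn) were at 0 in control and 5 were higher in BLM. Markers of AT2 cells reached 21.1 to 93.5 CPM in the BLM class and 440 to 535 CPM in the control class, with 2 of 9 higher in BLM. Their part in the ligand results was not tested.

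Among BLM endothelial cells, 893 of 1675 (53.3%) held a Pdgfb UMI, against 33.9% of control endothelial cells, and 19.5% held a Pdgfd UMI, against 3.21%. Of 326 BLM endothelial cells with Pdgfd, 227 (69.6%) also held Pdgfb. After thinning to 500 UMIs, Pdgfb was held by 27.2 ± 1.53% of cells in BLM rats and 15.5 ± 2.77% in control rats (SD, n = 3 each; two-sided exact permutation p = 0.1, adjusted p = 0.56), and 3 against 3 rats cannot give a p below 0.1.

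In subclasses, Pdgfd was 251, 205.7 and 147.6 CPM in the largest unnamed BLM subcluster, 142.4, 111.5 and 164.9 CPM in BLM arterial cells, and 0, 1 and 3 UMIs in control aerocyte-like cells. Pdgfb was 973.6, 612.9 and 898.2 CPM in the largest unnamed BLM subcluster and 336.5, 416.2 and 537.7 CPM in BLM arterial cells. Aerocyte-like cells of control lungs had 876.4, 491.5 and 566.3 CPM. Endothelial subcluster 3 is given by number, because its 10 leading genes hold the smooth muscle markers Tagln and Acta2 beside 1 venous marker, Slc6a2. It had 362.9, 353.8 and 338.2 CPM in BLM lungs, against 0 and 55.1 CPM in the 2 control rats with enough cells, which together held 1 UMI. Its log2 fold change there was 3.77 (SE 0.87, edgeR adjusted p = 0.0191), where 1.5% of 2204 genes tested were higher, and DESeq2 did not call it (adjusted p = 0.176).

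NK cells, the other class with much Pdgfb, had 189.3, 152.4 and 344.1 CPM in BLM lungs, against 214.7, 164.0 and 219.6 CPM in control lungs. The groups overlapped, and the log2 fold change was 0.14 (95% interval -0.42 to 0.70, edgeR adjusted p = 0.931).

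In alveolar macrophages, 6.63% of 9256 genes tested were higher in BLM lungs and 4.68% were lower. Pdgfb had 7.15, 8.85 and 6.87 CPM in BLM alveolar macrophages, against 1.72, 2.72 and 1.11 CPM in control alveolar macrophages, from 19, 36 and 17 UMIs and from 7, 4 and 8 UMIs. The groups did not overlap, and the log2 fold change was 2.25 (SE 0.37, edgeR adjusted p = 0.00426). The level was low: Pdgfb averaged 4.74 CPM over the 6 rats, between neutrophils at 3.66 CPM and monocytes at 4.96 CPM. Of all alveolar macrophages, 1.27% held a Pdgfb UMI. Pdgfa had 5.64, 4.92 and 5.26 CPM in BLM rats, against 2.21, 8.84 and 1.39 CPM in control rats, with an adjusted p of 0.429 by edgeR.

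The alveolar macrophages of the groups lay in different clusters: cluster 0 held 1020 BLM and 1931 control cells, cluster 2 held 298 and 1707, and cluster 9 held 966 and 141. Pdgfb did not pass the expression filter in any of them. In cluster 0 it was 5.71, 7.55 and 6.47 CPM in BLM rats, against 1.42, 0 and 0.89 CPM in control rats, without overlap, and without the filter the log2 fold change was 2.53 (edgeR adjusted p = 0.00214). In cluster 2 it had 0 UMIs in every BLM rat, against 2, 4 and 2 UMIs in control rats. In cluster 9 it had 13, 25 and 7 UMIs in BLM rats, against 1, 0 and 1 UMIs in control rats, with an adjusted p of 0.36 by edgeR without the filter.

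In interstitial macrophages, 9.22% of 6098 genes tested were higher and 8.45% were lower. Pdgfb had 32.4, 25.1 and 32.3 CPM in BLM interstitial macrophages, against 64.5, 81.5 and 98.5 CPM in control interstitial macrophages, from 34, 81 and 27 UMIs and from 9, 6 and 12 UMIs. All BLM rats were lower than all control rats, and the log2 fold change was -1.35 (SE 0.35, edgeR adjusted p = 0.0147).

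The call was lost without BLM rat 2 or control rat 3, with log2 fold changes of -1.21 and -1.06. The class joined a cluster of 987 BLM and 11 control cells with one of 491 BLM and 181 control cells. The first was led by Spp1, Apoe and Ctsk, and the second by C1qc, C1qa and C1qb. The study placed its macrophages with high Spp1, Trem2 and Arg1 among alveolar macrophages, so the class may join different cell types. Within the second cluster Pdgfb had 21.4, 38.8 and 46.9 CPM in BLM rats, against 68.0, 85.0 and 113.2 CPM in control rats. It did not pass the expression filter there, and without the filter the edgeR adjusted p was 0.624. The part of this shift between clusters in the class result was not tested.

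Alveolar and interstitial macrophages differed in their BLM effect on Pdgfb by 3.46 on the log2 scale (SE 0.58, edgeR adjusted p = 1.1e-05), in a fit with the rat as a block in which 7.08% of 9501 genes were higher and 10.3% lower. It was the only one of 24 such tests of a member in 7 pairs of classes to pass the threshold. In data simulated for endothelial against smooth muscle or pericyte cells, such a fit called 31% of genes with a log2 difference of 2. The uncalled tests therefore do not show like effects between classes.

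**Figure D4:**
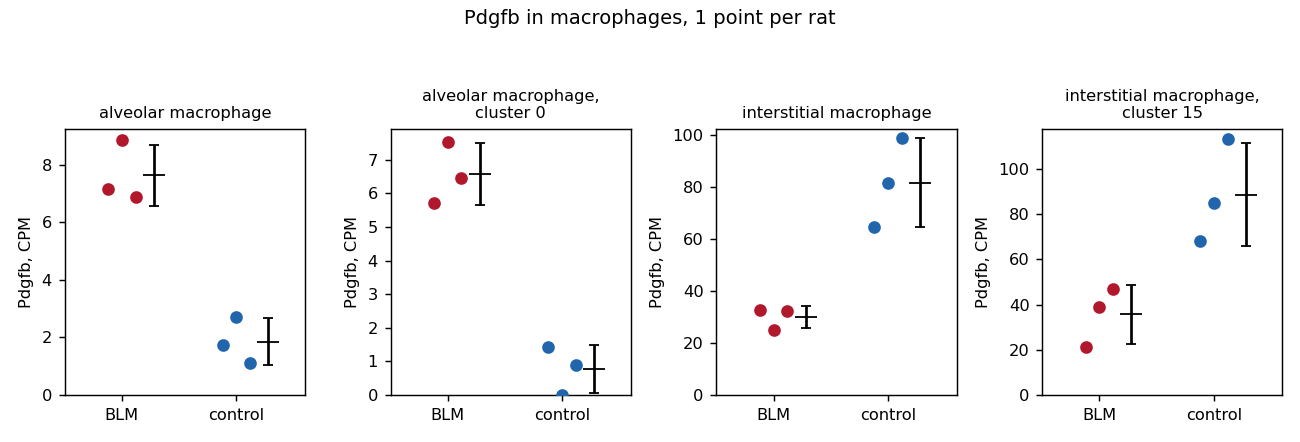
Pdgfb in alveolar and interstitial macrophages and in 1 cluster of each, in CPM, with 1 point per rat, BLM left of control, and the mean and SD over rats. Alveolar macrophages show 6.87 to 8.85 CPM in BLM rats against 1.11 to 2.72 CPM in controls, and interstitial macrophages 25.1 to 32.4 CPM against 64.5 to 98.5 CPM.

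No test of a receptor within a class passed the threshold. The fibroblasts of the groups were largely of different subclasses: adventitial fibroblasts numbered 740 in BLM lungs and 7 in control lungs, and alveolar fibroblasts 49, 93 and 60 in BLM rats and 1, 12 and 25 in control rats. Fibroblast Pdgfra was 636.2, 581.8 and 418.4 CPM in BLM rats, against 477.2 and 780.7 CPM in control rats 2 and 3, and control rat 1 had 3 fibroblasts. The groups overlapped, and the log2 fold change was -0.00 (95% interval -0.72 to 0.71, edgeR adjusted p = 1). Pdgfra was held by 70.0% of BLM fibroblasts and 66.0% of control fibroblasts.

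Fibroblast Pdgfrb was 37.9, 60.9 and 71.7 CPM in BLM rats, against 25.1 and 99.7 CPM in control rats 2 and 3 (log2 fold change -0.05, 95% interval -1.41 to 1.32, edgeR adjusted p = 0.995). Of 188 BLM fibroblasts with Pdgfrb, 153 (81.4%) also held Pdgfra.

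In the smooth muscle or pericyte class, Pdgfrb was 123.5, 122.9 and 131.7 CPM in BLM rats, against 175.8, 181.9 and 123.4 CPM in control rats. The groups overlapped at control rat 3, and the log2 fold change was -0.24 (95% interval -0.77 to 0.29, edgeR adjusted p = 0.649). Pdgfa in the same class was 288.9, 229.3 and 203.7 CPM in BLM rats, against 207.7, 94.6 and 160.0 CPM in control rats, with a log2 fold change of 0.73 (SE 0.27, edgeR adjusted p = 0.086).

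This class joined a mural cluster of 670 BLM and 87 control cells with a cluster of 198 BLM and 223 control cells led by Cldn11. Fibroblast markers summed to 3590 to 5429 CPM in the BLM class and 23350 to 26120 CPM in the control class, and in the mural cluster alone the Pdgfa log2 fold change was -0.03. Among pericytes, Pdgfrb was 223.7, 324.5 and 185.8 CPM in BLM rats, against 430.8 and 292.1 CPM in control rats 2 and 3 (log2 fold change -0.55, edgeR adjusted p = 0.479).

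**Figure D5:**
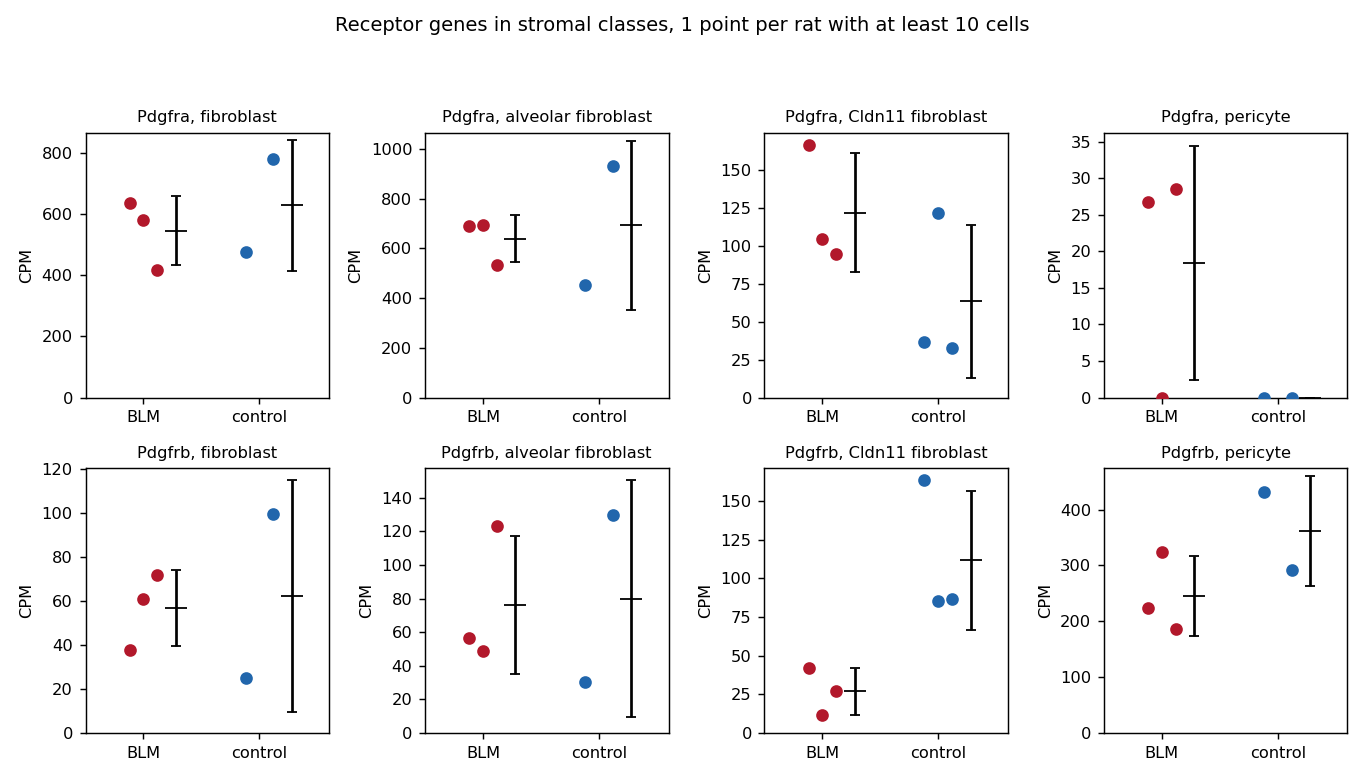
Pdgfra and Pdgfrb in fibroblasts, alveolar and Cldn11 fibroblasts and pericytes, in CPM, with 1 point per rat that had at least 10 cells, BLM left of control, and the mean and SD over rats. Fibroblast Pdgfra lies at 418.4 to 636.2 CPM in BLM rats against 477.2 and 780.7 CPM in control rats 2 and 3.

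Among epithelial cells, Pdgfa was 803 and 270.5 CPM in AT1 cells of control rats 2 and 3, with 12 and 41 cells, and BLM lungs gave 12 AT1 cells in all, too few in any rat for a level. Tuft cells of control rats had 308.7, 134.1 and 188.0 CPM, and ciliated cells of BLM rats had 109.6, 63.7 and 63.2 CPM.

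Mesothelial Pdgfa was 143.8, 128.2 and 126.5 CPM in BLM rats, against 102.6, 132.0 and 114.5 CPM in control rats (log2 fold change 0.18, 95% interval -0.38 to 0.73, edgeR adjusted p = 0.827). AT2 Pdgfa was 20.3 and 32.2 CPM in BLM rats 2 and 3, against 63.4, 97.5 and 61.3 CPM in control rats (log2 fold change -1.46, SE 0.48; edgeR adjusted p = 0.184). These AT2 groups did not overlap, but BLM rat 1 had 7 AT2 cells and was left out.

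Genes around the pathway were counted in lists by role. In whole lungs, where 11.1% of all genes were higher and 6.33% lower, 3 of 6 tested proteases that can process PDGF ligands were higher in BLM lungs: Plat, the tissue plasminogen activator that activates PDGF-C (log2 fold change 3.90), Plau (2.44) and St14 (0.67). The list median was 0.67, against -0.01 for all genes. Of 5 tested ligand-binding proteins, 3 were higher: Bgn (2.44), Sparc (2.27) and Nrp1 (0.90), with a list median of 0.90.

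Of 24 adaptors and enzymes bound by the receptors 4 were higher and none lower, against 11.1% and 6.33% of all genes, and the list median was 0.11. The 14 tested relay genes of the Ras-MAPK and PI3K-Akt routes had a median of -0.05. The 4 were Grb10 (1.24), Nck2 (1.08), Pik3r1 (0.74) and Rasa1 (0.49). Negative regulators had 2 of 11 higher, Spry4 (2.62) and Socs1 (0.86), and 1 lower, Ptprj (-0.42). Of 7 class III receptor tyrosine kinases and their ligands outside the PDGF genes, 3 were higher, Il34 (2.85), Kitlg (1.49) and Csf1 (0.92). Of 17 genes listed for the immediate early response, only 5 were in the deposited counts. Of these 5, 4 were higher: Has2 (2.79), Ccn2 (2.63), Egr3 (2.41) and Ccn1 (1.13).

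In BLM endothelial cells, Plat was higher (log2 fold change 1.51), as were Sparc (0.80), Socs1 (1.78), Spry4 (1.25) and Ccn1 (1.43), while Src (-2.17) and Kit (-1.38) were lower. Fosl1, an immediate early gene, had 189 UMIs in BLM endothelial cells and 0 in control endothelial cells. In the smooth muscle or pericyte class, Plat (2.20), Spry4 (1.22) and Kitlg (1.36) were higher and Pcsk5 (-2.68), Pcsk6 (-1.75), Lrp1 (-1.38), Spry1 (-2.01), Sparc (-0.70), Pik3r1 (-1.16) and Ccn1 (-1.17) were lower, beside the shift in cluster make-up given above. Among the genes tested in that class, 5.06% were higher and 6.12% were lower.

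In alveolar macrophages, St14 (1.93), Src (2.96), Pik3r1 (1.18), Spry1 (2.26), Egr3 (3.35) and Fosl1 (2.17) were higher in BLM lungs and Lrp1 (-1.17), a PDGF-BB co-receptor, was lower. In interstitial macrophages, Fyn (1.70) and Nck1 (1.29) were higher and Src (-1.25), Spry1 (-2.32), Spry2 (-2.19), Kitlg (-2.78) and Csf1r (-1.46) were lower. Both macrophage classes also differed between groups in cluster make-up, as given above, and its part in these calls was not tested. Sprouty genes encode inhibitors of receptor tyrosine kinase signalling. In fibroblasts, where 0.651% of 7525 genes tested were higher and 0.571% were lower, Ccn2 (1.92) and Fyn (3.45) were higher, Kitlg (-2.21) was lower, and Nck1, also called higher, had 342 UMIs in BLM and 1 UMI in control fibroblasts. Those counts came from 1065 BLM and 47 control fibroblasts, and Fyn had 3 UMIs in the control cells. Only control rats 2 and 3 entered the fibroblast fit. The 1 control UMI of Nck1 lay in control rat 1, outside the fit, as did part of the control Fyn UMIs.

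Over 104 class-by-rat sums and 11028 genes, the gene whose level was most like that of Pdgfa was Pawr (Pearson r 0.83), of Pdgfb Clic5 (0.68), of Pdgfc Igfbp3 (0.68), of Pdgfd Cxcl12 (0.89), of Pdgfra Tcf21 (0.94) and of Pdgfrb Abcc9 (0.94). Next after Cxcl12 for Pdgfd came Ntrk2 (0.86), Gpihbp1 (0.84), Sox17 (0.83) and Sox7 (0.82). The sums share libraries and classes, so these are descriptions. Tcf21 and Abcc9 were also among the markers that named the fibroblast and mural classes.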

How the data were processed

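Single-cell RNA-seq of 3 BLM-treated and 3 control rat lungs was analysed from the UMI counts that the authors deposited, 1 table of cells by genes with no normalization. Polyadenylated RNA was captured on barcoded beads and counted by UMI at the 3' end. The submitters' processing notes name mm9, a mouse build, for these rat libraries, and no source used here gives the aligner or annotation. The header lacked a name for the cell column, so each gene was read 1 field to the right of its name. Cell names end in N or F with a number, which the labels do not spell out. They were assigned to control and BLM rats because the cell totals of the letters equal those the study gives for these groups, and numbers were matched to the titles. Total UMIs per rat were 3860028 to 16598959, and no source used here gives the authors' filter on cells.

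Cells were scaled to 10000 UMIs, and 2000 variable genes without the 6 PDGF genes, 30 principal components and 15 neighbours were clustered by the Leiden method at resolution 1.0 (scanpy 1.11.5). A cluster was named for the class with the highest mean marker fold when at least 3 markers were raised. The naming rule and the resolutions of the subclusters were set after the clusters were seen, by their markers. A doublet caller marked 99 cells (0.388%), too few to have worked, so cells were kept and their removal was an alternative.

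For every class, the UMIs of each rat with at least 10 cells were added up, filtered by filterByExpr, scaled by TMM and tested with edgeR 4.0.16 (R 4.3.3). Standard errors were derived from the log2 fold change and the F statistic. Differences between classes were interaction terms with the rat as a block. Shares of cells were compared after thinning to 500 UMIs by exact permutation over rats. Alternatives were RLE scaling, no filter, DESeq2 1.42.0, a replicate block, leaving out each rat, removal of doublets, a minimum of 500 UMIs and Leiden resolutions of 0.5 and 2.0, and single clusters were added after the data were seen. In data simulated from the endothelial class, 90.5% of genes with a log2 change of 2 and 28.3% of those with a log2 change of 1 were called. Among the 5921 genes of that simulation, 12 unchanged genes were also called. All 6 members were named, with up to 4 called genes per list and class and the genes most like each member. The members and lists were chosen with earlier results of these data known. P-values measure the spread between rats. Not every called gene of the lists is reported here.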

Additional observations from a re-analysis of the deposited data

Results flagged for a closer look

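The BLM effect on Pdgfb differed between alveolar and interstitial macrophages, by a log2 difference of 3.46 (SE 0.58, edgeR adjusted p = 1.1e-05). Pdgfb was 6.87 to 8.85 CPM in BLM alveolar macrophages against 1.11 to 2.72 CPM in control alveolar macrophages, and 25.1 to 32.4 CPM in BLM interstitial macrophages against 64.5 to 98.5 CPM in control interstitial macrophages. Summed AT1 markers in the alveolar macrophage class were 215 to 316 CPM in BLM rats and 20.4 to 48.9 CPM in control rats, with 4 of 8 markers higher in BLM, and summed endothelial markers were 107.5 to 109.2 CPM and 79.5 to 103.3 CPM. The alveolar macrophages also lay in different clusters, with 298 BLM and 1707 control cells in cluster 2 and 966 BLM and 141 control cells in cluster 9. So did the interstitial macrophages, with 987 BLM and 11 control cells in cluster 10 and 491 BLM and 181 control cells in cluster 15. Cluster 10 was led by Spp1, Apoe and Ctsk, and cluster 15 by C1qc, C1qa and C1qb. Within cluster 15, Pdgfb did not pass the expression filter. The part of these in the difference was not tested. Alveolar macrophage Pdgfb was low, with a mean over 6 rats of 4.74 CPM, between neutrophils at 3.66 CPM and monocytes at 4.96 CPM.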

How the results depend on the processing

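Log2 fold changes are given throughout. With 1 rat left out, Pdgfa ranged from 0.87 to 1.30 and Pdgfrb from 1.07 to 1.73 in whole lungs. In endothelial cells Pdgfa ranged from 0.80 to 1.79 and Pdgfb from 0.77 to 1.23, in interstitial macrophages Pdgfb from -1.46 to -1.06, and in endothelial subcluster 3 Pdgfb from 2.80 to 7.70, where the call was lost without control rat 2. The count of calls in subclasses was 0 to 1 and that of differences between classes 1 to 2, with 2 when BLM rat 2 or BLM rat 3 was left out. The sign turned for NK Pdgfb (-0.20 to 0.38), club cell Pdgfa (-0.31 to 6.74), fibroblast Pdgfra (-0.25 to 0.61) and Pdgfrb (-0.54 to 1.59), alveolar fibroblast Pdgfra (-0.45 to 0.62) and Pdgfrb (-0.68 to 1.43) and pericyte Pdgfa (-0.29 to 0.70), none of which was called. Endothelial Pdgfb was 0.81 and not called without doublets. Endothelial Pdgfa was called with no filter (1.65), with at least 500 UMIs (1.88) and in the largest cluster alone (2.19). With DESeq2 Pdgfb of subcluster 3 was 3.85 and not called, so that 0 subclass tests passed, and 3 passed at Leiden resolution 0.5; the cause was not tested. Among other values, AT2 Pdgfa was called with no filter (-1.60), alveolar macrophage Pdgfa without control rat 2 (1.54), and pericyte Pdgfrb (-3.82) and Pdgfa (-1.88) at resolution 0.5.

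Uncalled values that turned sign were NK Pdgfb with at least 500 UMIs (-0.026), club cell Pdgfa at resolution 0.5 (-1.55), without doublets (-1.52) and with at least 500 UMIs (-1.64), fibroblast Pdgfra with no filter (0.17), at resolution 2.0 (0.002) and with at least 500 UMIs (0.012), fibroblast Pdgfrb with no filter (0.13), alveolar fibroblast Pdgfra (0.14) and Pdgfrb (0.10) with no filter, pericyte Pdgfa with no filter (0.17) and with DESeq2 (0.016), and Pdgfa of the smooth muscle or pericyte class in the mural cluster alone (-0.030). Of the other values, 234 kept their direction and call under another setting and 158 with a rat left out.

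Rats of the 2 groups share only a number, and same-numbered rats did not deviate together (whole-lung correlations of 0.102, -0.059 and -0.127). With the replicate block, uncalled values turned sign for club cell Pdgfa (-0.26), fibroblast Pdgfrb (0.21) and alveolar fibroblast Pdgfrb (0.10), and no call changed.

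The depth limits Pdgfc everywhere and every member in control endothelial cells and fibroblasts, which numbered 218 and 47 cells. None of 84 shares of cells passed the threshold by exact permutation, where the smallest p that 3 against 3 rats allow is 0.1. Intervals cover the spread between rats only.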

Other observations

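Mesothelial Pdgfra came from 1 rat: BLM rat 3 held 46 UMIs in 29 cells (34.8 CPM), and the mesothelial cells of the other 5 rats held 0. Pdgfc in mesothelial cells also lay mostly in BLM rat 3, with 0, 3 and 25 UMIs in BLM rats and 1, 1 and 0 UMIs in control rats. In neutrophils, Pdgfa had 13 UMIs in BLM lungs and 0 in control lungs, and Pdgfb had 6 and 1.

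In Cldn11 fibroblasts, Pdgfrb was 41.7, 11.6 and 27.1 CPM in BLM rats, against 163.7, 85.1 and 86.5 CPM in control rats, from 1, 1 and 2 UMIs and from 9, 7 and 16 UMIs. The groups did not overlap, but the gene did not pass the expression filter, and without the filter edgeR gave an adjusted p of 0.187. In alveolar fibroblasts, Pdgfc held 8, 15 and 5 UMIs in BLM rats, against 0 and 1 UMIs in control rats 2 and 3.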
